A study of Mus musculus with 15 samples.

Results

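Autophagy machinery is taken here as a list of 36 mouse genes that initiate, build and load the autophagosome, chosen by name and matched to the gene symbols of the 2 expression tables. Of these, 34 had a row in both tables, among 11677 genes measured in the cultures and 11299 in the microdissected regions. *Map1lc3b* and *Atg9a* matched no row and were not analysed here. The 34 genes fall into 7 role groups, which are the ATG8 family, its conjugation enzymes, the ULK complex, the class III PI3-kinase complex, the lipid transfer and PI3P-binding proteins, the cargo receptors and the transcription factors.

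Expression was measured by 3′ end RNA sequencing in 15 samples of wild-type 21EM15 cells, an immortalized line of mouse lens epithelial cells. In the cultures, 4 samples came from cells grown flat on culture-treated Petri dishes (2D) and 4 from spheroids, also called organoids, that formed in round-bottom wells coated with Polyhema to prevent attachment (3D). From sections of frozen spheroids, laser capture microdissection gave 4 internal and 3 external samples. All samples derive from 1 cell line, each 3D or region sample pools many spheroids, the intermediate zone between the regions was not captured, and a further external sample that the study set aside after principal component analysis was not analysed here. Per the study's methods a 2D replicate is the RNA of a dish of its own, and a 3D replicate that of its own set of spheroids. Each region replicate also drew on a set of spheroids, but whether an internal and an external sample shared a set is not given. The test between regions treats them as independent. Whether the dishes and sets were grown on separate days or from separate passages is not given in the sources used here. The p-values therefore measure the spread between such dishes and sets, which may be technical. The unit is log2 CPM, the log2 of read counts scaled to a common library size, and the 2 tables were normalized separately, so levels were not tested across them. Between 7305053 and 9362587 reads were counted per culture sample and between 4044230 and 11702504 per region sample.

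Autophagy encloses cytoplasm or organelles in a double membrane that fuses with the lysosome. The ULK kinase complex starts the process, the class III PI3-kinase complex marks the growing membrane with PI3P, a pair of ubiquitin-like systems attach ATG8 proteins to the membrane lipid, and cargo receptors tether the material to be degraded to ATG8. In the lens, autophagy is known for protein and organelle quality control in long-lived fiber cells, and it has been studied in connection with the loss of organelles from differentiating fiber cells. TFEB and TFE3, which activate many autophagy and lysosome genes, bind a DNA element that contains the E-box letters CACGTG.

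Promoters of 4 members are shown as examples picked by test result or motif, and sequence was not tested against response. *Gabarapl1* and *Calcoco1* passed the test in both comparisons. *Atg14* was the E-box bearing member among those that passed it in 3D, and *Atg3* the only member with 2 E-boxes. The promoters of *Atg5* and *Atg7*, uncalled with CACGTG, and of *Gabarap* and *Atg13*, called without it, are not printed. Each printed promoter runs from 250 bases before the RefSeq start site to 50 after it on GRCm38.p6, 5′ to 3′ on the strand of the gene. Capitals mark CACGTG, which reads the same on both strands. The windows are chr6:129532942-129533241 (+), chr15:102722129-102722428 (−), chr14:47568385-47568684 (−) and chr16:45158579-45158878 (+) in the order printed.
Gabarapl1: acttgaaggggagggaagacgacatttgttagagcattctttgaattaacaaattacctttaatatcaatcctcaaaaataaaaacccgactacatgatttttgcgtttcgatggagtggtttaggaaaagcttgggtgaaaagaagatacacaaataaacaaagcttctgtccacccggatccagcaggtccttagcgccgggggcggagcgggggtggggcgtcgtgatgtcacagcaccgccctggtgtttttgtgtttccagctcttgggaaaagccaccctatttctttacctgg
Calcoco1: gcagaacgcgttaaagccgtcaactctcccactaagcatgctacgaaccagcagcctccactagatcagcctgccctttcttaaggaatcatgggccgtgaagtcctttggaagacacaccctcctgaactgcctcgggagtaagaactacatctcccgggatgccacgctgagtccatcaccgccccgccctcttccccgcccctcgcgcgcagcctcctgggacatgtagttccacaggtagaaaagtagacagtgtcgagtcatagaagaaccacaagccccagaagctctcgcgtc
Atg14: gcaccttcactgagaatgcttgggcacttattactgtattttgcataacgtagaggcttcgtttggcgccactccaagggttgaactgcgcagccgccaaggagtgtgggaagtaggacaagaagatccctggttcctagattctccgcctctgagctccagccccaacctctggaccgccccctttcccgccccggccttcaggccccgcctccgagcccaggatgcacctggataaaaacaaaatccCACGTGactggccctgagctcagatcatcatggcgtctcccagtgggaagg
Atg3: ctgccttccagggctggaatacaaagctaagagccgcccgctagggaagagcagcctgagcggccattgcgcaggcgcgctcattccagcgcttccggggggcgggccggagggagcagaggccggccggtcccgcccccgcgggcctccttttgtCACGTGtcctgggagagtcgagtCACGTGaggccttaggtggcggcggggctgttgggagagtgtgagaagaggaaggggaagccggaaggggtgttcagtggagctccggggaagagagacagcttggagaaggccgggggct

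Of the 34 members, 28 had a promoter in the RefSeq set, and CACGTG occurred in those of 4 members, *Atg3*, *Atg5*, *Atg7* and *Atg14*. Counted by promoter entry, of which some genes have several, these are 4 of 35 (11.4%), and the same letters occurred in 7.15% of all 32851 entries of this length. Counted by gene they are 14.3% of the members and 8.09% of all 27025 genes with an entry. Of the members that passed the test in 3D, 5 had a promoter entry and 1 of them, *Atg14*, held the letters, where the motif began 1 base before the start site. That start site lies within the annotated span of *Atg14*, downstream of where the gene is annotated to begin. The forkhead motif GTAAACA, searched on both strands as GTAAACA and TGTTTAC, occurred in 3.65% of all entries and in 0 members, so it overlapped no CACGTG in them. The promoter entries of the members had a median GC content of 60% over 35 entries, against 52.7% over all promoters.

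The lens label was checked against 13 lens genes, of which 8 had a row in both tables. Their summed level was 1648 to 1863 CPM in 2D, 3808 to 5550 in 3D, 4781 to 5471 in the external region and 11273 to 12182 in the internal region, while *Foxe3*, *Sox2*, *Pitx3*, *Cryaa* and *Cdh1* matched no row. Endothelial markers had 0 of 4 genes listed, and macrophage markers, of which 1 of 6 was listed in the cultures and 2 of 6 in the regions, summed to at most 10.01 CPM in any sample. The levels of proliferation genes and mitochondrial reads moved with both comparisons, and those of fibroblast markers with the cultures. The summed level of the 4 proliferation genes *Mki67*, *Top2a*, *Ccnb1* and *Cdc20* was 928 to 1513 CPM in 2D and 451 to 518 in 3D, and 452 to 631 in the external region against 28.9 to 68.2 in the internal region. Reads from mitochondrially encoded genes made up 2.27 to 3.72% in 2D, 4.02 to 6.23% in 3D, 2.53 to 3.60% in the external region and 5.42 to 6.98% in the internal region. Fibroblast markers, of which 7 of 8 were listed in the cultures and 6 of 8 in the regions, summed to 115 to 279 CPM in 2D, 551 to 811 in 3D, and to 279 to 666 in the external region and 531 to 613 in the internal region, where they overlapped. The part of these shifts in the results on autophagy genes was not tested. In bulk samples fewer cells of a type and less RNA per cell cannot be told apart.

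The first comparison sets the autophagy genes in spheroids against those in flat cultures. Per the study's methods, 2D dishes were harvested short of full confluence and spheroids after a longer time in culture. Time in culture, cell density and growth form therefore differ together and cannot be told apart. In 3D, 7 of 34 members were higher than in 2D (20.6%, where 9.74% of all genes were called higher), with limma and an adjusted p under 0.05. They were the ATG8 genes *Map1lc3a*, *Gabarap* and *Gabarapl1*, the ubiquitin-like conjugation factor *Atg12*, the ULK complex adaptor *Atg13*, the PI3-kinase subunit *Atg14* and the cargo receptor *Calcoco1*. No member was called lower (0 of 34, where 9.25% of all genes were), by limma on the log2 values or by limma-voom on the recovered reads. At an unadjusted p under 0.05 there were 13 members higher and 1 lower, *Rb1cc1*, against 16.7% and 17.0% of all genes. The 4 samples of each group did not overlap for 10 members higher in 3D and for 1 lower, against 12.0% of all genes in each direction. In the same samples the proliferation genes were lower and the mitochondrial share was higher in 3D. The log2 fold change was above 0 for 26 of 34 members, against 47.8% of all genes, and its median was 0.29 over the members and -0.03 over all genes. Of these signs, that of *Wipi2* turned with total reads as the library size and that of *Atg101* with median-of-ratios scaling. With a fold change of more than 2-fold required as well, 2 members remained called, *Map1lc3a* and *Calcoco1* (5.52% of all genes were called higher and 2.86% lower by this rule, and with an adjusted p under 0.01 as well, which left both members called, 2.92% and 1.51%). Leaving out 1 sample at a time gave 4 to 9 calls (614 to 1444 over all genes, against 1137 with all samples), and *Map1lc3a*, *Gabarap*, *Gabarapl1* and *Calcoco1* were called in all 8 such fits. The count was 4 without 2D replicate 4 and without 3D replicate 2, 3 or 4.

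**Figure D1:**
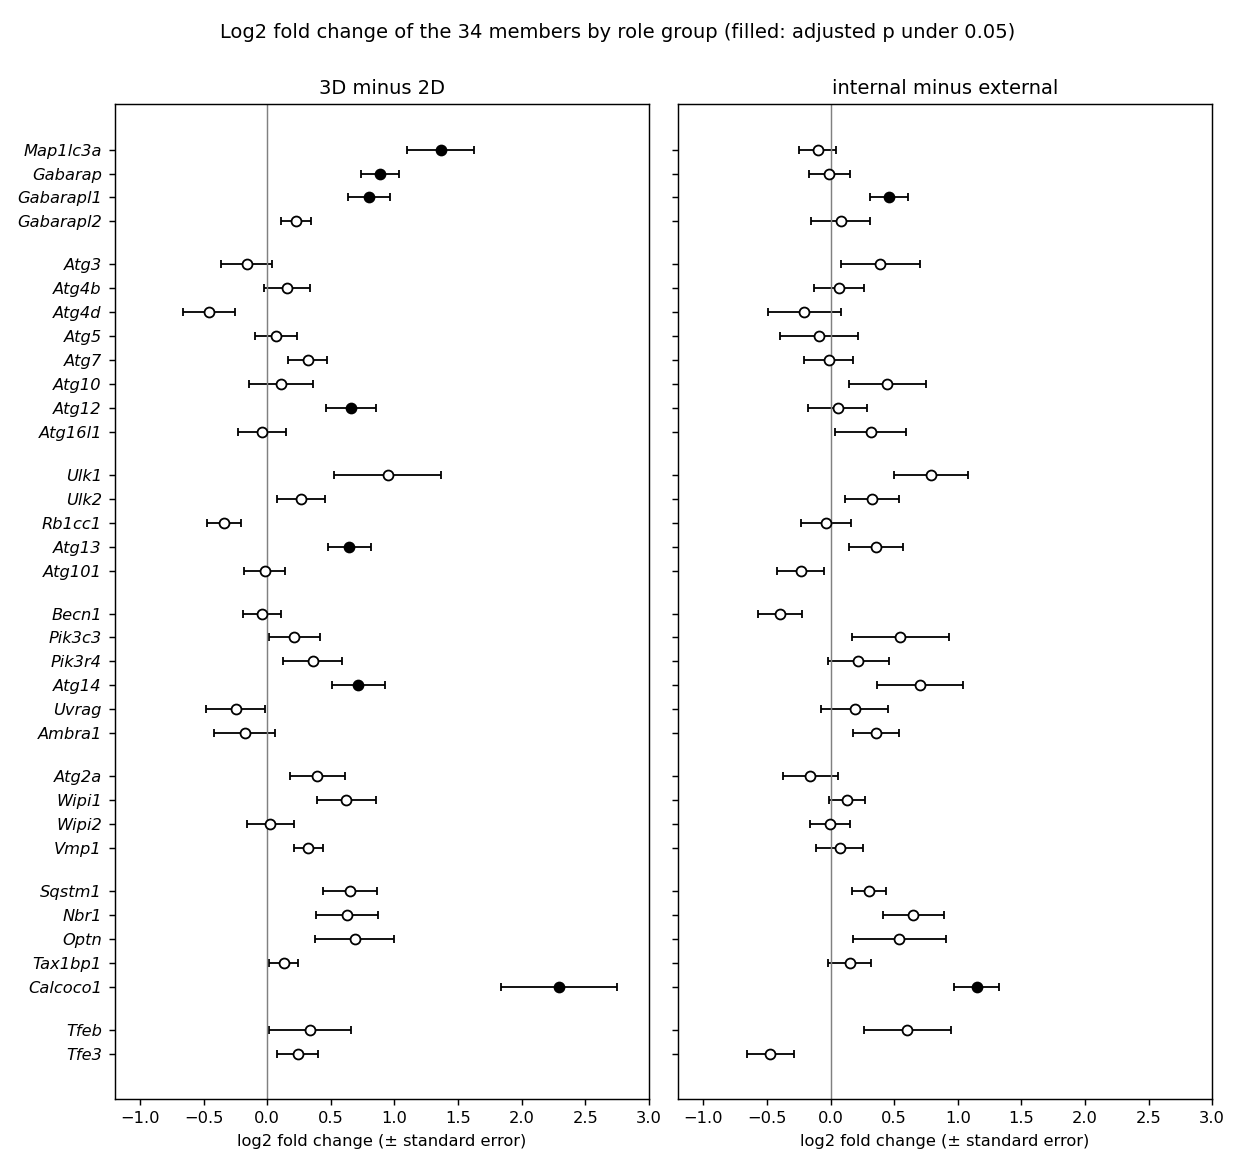
Log2 fold change of each of the 34 members with its standard error, 3D minus 2D on the left and internal minus external on the right, ordered by role group; filled points have an adjusted p under 0.05. The 7 filled points on the left and the 2 on the right all lie above 0, with Calcoco1 farthest to the right in both panels.

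The second comparison asks where in the spheroid these genes are expressed. Inside the spheroid, 2 of 34 members were higher than at its rim (5.88%, where 9.58% of all genes were called higher), the cargo receptor *Calcoco1* and the ATG8 gene *Gabarapl1*. With limma and limma-voom 0 members were called lower, where 12.1% of all genes were, and at an unadjusted p under 0.05 there were 6 higher and 2 lower, against 16.1% and 17.5% of all genes. With more than a 2-fold change required, *Calcoco1* alone was called (4.77% of all genes were called higher and 5.65% lower, and 3.27% and 4.35% with an adjusted p under 0.01 as well). The 2 groups did not overlap for 6 members higher in the internal region (17.6%), *Gabarapl1*, *Atg13*, *Atg14*, *Sqstm1*, *Nbr1* and *Calcoco1*, against 13.5% of all genes. They did not overlap for 2 members lower there, *Becn1* and *Tfe3*, against 15.4% of all genes. With the deposited scaling and all samples the share of members called was below that of all genes in both directions. Without external replicate 2 it was above in the higher direction (8.82% against 6.93%). In the same samples the proliferation genes were lower and the mitochondrial share was higher inside. The log2 fold change was above 0 for 23 of 34 members and for 52.9% of all genes, with medians of 0.17 and 0.04. With total reads as the library size the median over all genes moved to 0.15 and that over the members to 0.28, 5 members were called (14.7%, where 12.8% of all genes were), and *Map1lc3a*, *Gabarap*, *Atg5*, *Atg7*, *Rb1cc1* and *Wipi2* turned from below 0 to above it. With equal sample medians the median over all genes was -0.02 and that over the members 0.10, *Atg12* turned to below 0, *Gabarapl1* was no longer called and *Tfe3* was called lower. Leaving out 1 sample at a time gave 1 to 3 calls (2.94 to 8.82% of the members, where 6.93 to 9.51% of all genes were called), the lowest count without internal replicate 2, and *Calcoco1* was called in all 7 such fits.

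**Figure D2:**
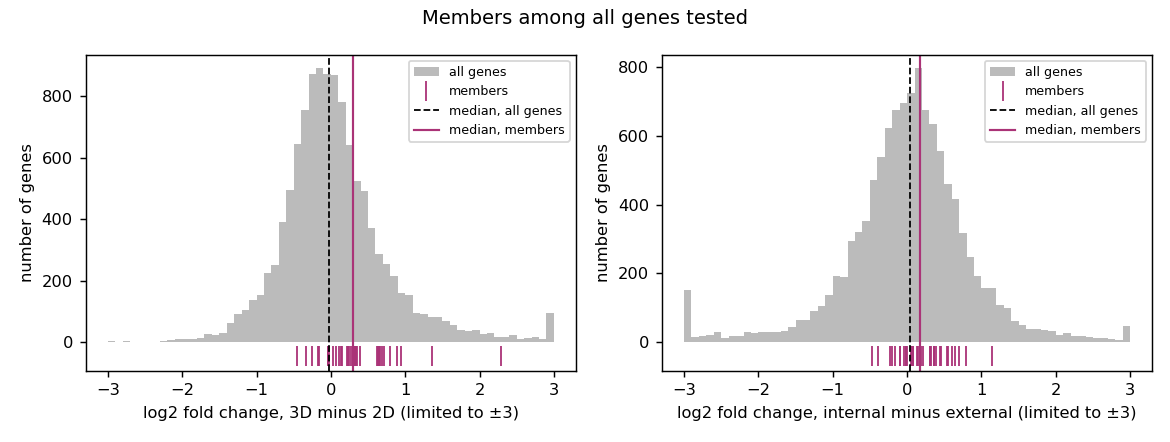
Histograms of the log2 fold change of all genes tested (grey, limited to 3 in either direction) with the 34 members as ticks under the axis and both medians as vertical lines. On the left, 3D minus 2D, the members' median of 0.29 lies to the right of that of all genes at -0.03; on the right, internal minus external, the medians of 0.17 and 0.04 lie closer together.

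The ATG8 proteins coat the inner and outer autophagosome membrane and bind the cargo receptors. All 4 measured members had a positive log2 fold change in 3D, 3 of them passed the test, and 1 of them, *Gabarapl1*, also passed it in the internal region. Of all genes, 47.8% were above 0 and 9.74% were called higher in 3D, and 9.58% were called higher in the internal region. *Map1lc3a* (ENSMUSG00000027602, chr2:155276297-155278073) encodes LC3A. Its level was 6.04, 6.60, 5.41 and 5.26 log2 CPM in 2D replicates 1 to 4, and 7.38, 7.29, 7.17 and 6.92 in 3D replicates 1 to 4. The groups did not overlap, and the spread was wider in 2D, where replicates 3 and 4 were lowest. The difference was 1.36 ± 0.26 on the log2 scale (SE), or 2.57-fold, with an adjusted p of 0.00720 (limma). In the external region replicates 1 to 3 were at 7.96, 8.22 and 8.18 log2 CPM, and internal replicates 1 to 4 at 8.11, 7.96, 7.76 and 8.25. These ranges overlapped, and the log2 fold change of -0.10 ± 0.15 did not pass the test (adjusted p = 0.669).

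*Gabarap* (ENSMUSG00000018567, chr11:69991143-69994951) and *Gabarapl1* (ENSMUSG00000030161, chr6:129533160-129542346) encode members of the GABARAP branch of the family, which act in autophagosome closure and fusion as well as cargo binding. *Gabarap* was at 7.33, 7.85, 7.68 and 7.42 log2 CPM in 2D and at 8.63, 8.21, 8.50 and 8.49 in 3D, without overlap. It rose by 0.89 ± 0.15 in log2 (1.85-fold, adjusted p = 0.00355). Between the regions its values overlapped, with 8.55, 8.56 and 8.76 log2 CPM outside and 9.13, 8.51, 8.41 and 8.39 inside, and the log2 fold change was -0.01 ± 0.16 (adjusted p = 0.971). Internal replicate 1 was the highest of all 7 and the other internal samples were below every external one.

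*Gabarapl1*, whose promoter is printed above without an E-box, was at 6.07, 6.59, 6.28 and 5.82 log2 CPM in 2D and at 6.91, 6.92, 7.03 and 7.09 in 3D. Every 3D sample was above every 2D sample, and the 3D samples differed little among themselves. The rise was 0.80 ± 0.16 in log2 (1.74-fold, adjusted p = 0.00904). In the regions it was at 7.26, 7.72 and 7.60 log2 CPM outside and at 8.12, 8.05, 7.84 and 7.93 inside. The groups stood apart, and the log2 fold change of 0.46 ± 0.15 (1.37-fold) had an adjusted p of 0.0291. This call was lost without internal replicate 1 (adjusted p = 0.0863), internal replicate 2 (0.0742), external replicate 1 (0.146) or both samples numbered 2 (0.0716), without a variance trend (0.138) and with equal sample medians (0.0717). *Gabarapl2*, which encodes GATE-16, was at 6.37, 6.47, 6.52 and 6.19 log2 CPM in 2D and at 6.60, 6.59, 6.66 and 6.59 in 3D. The groups did not overlap, yet the log2 difference of 0.22 ± 0.12 did not pass the test (adjusted p = 0.210). Its region samples overlapped, at 5.47, 5.09 and 5.09 outside and 5.58, 5.52, 5.03 and 5.05 inside (log2 fold change 0.08 ± 0.23, adjusted p = 0.846).

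**Figure D3:**
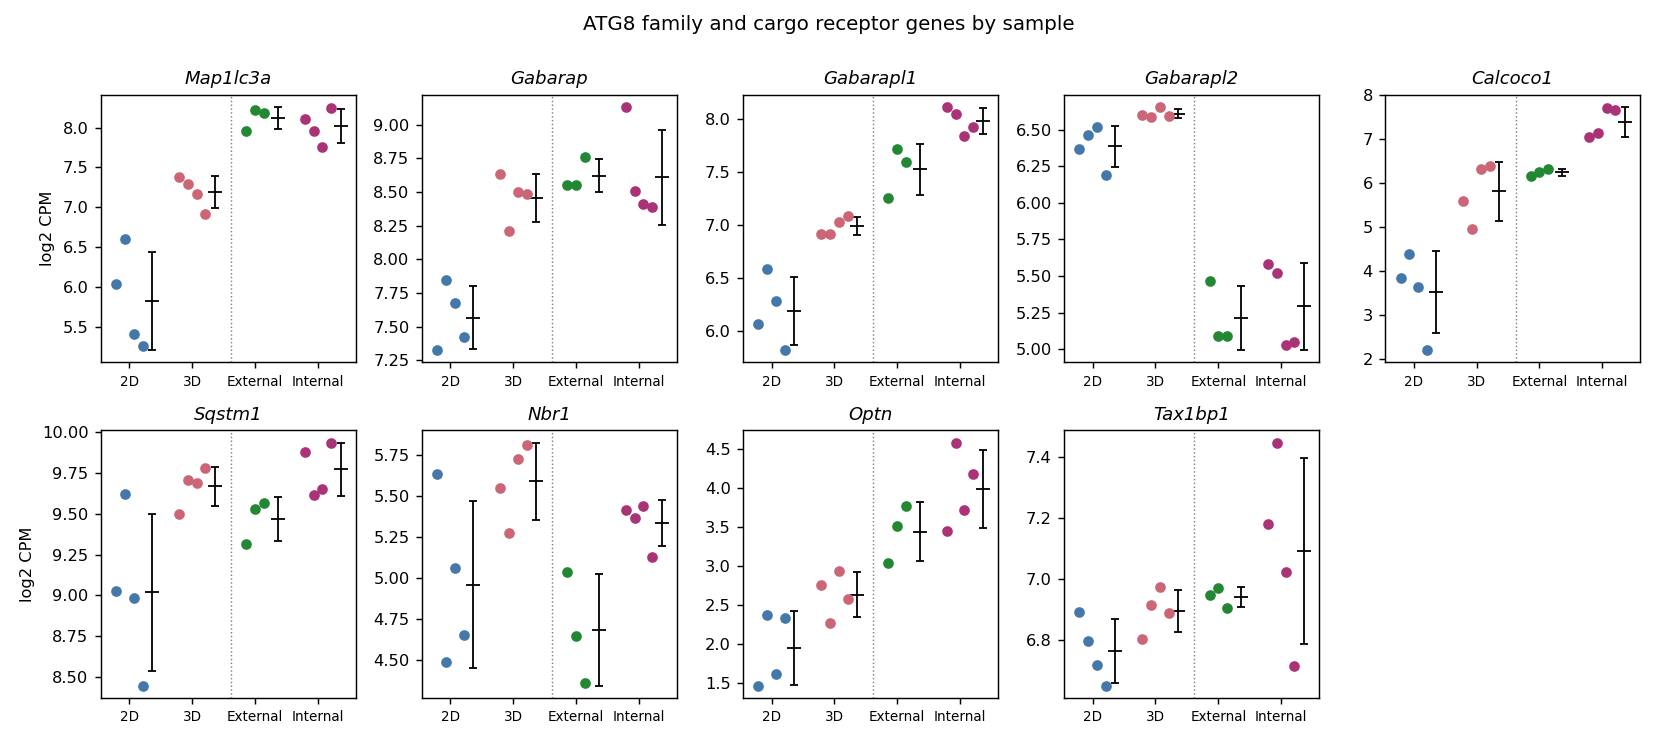
Level in log2 CPM of the 4 ATG8 genes and the 5 cargo receptor genes in every sample, with the group mean and SD (n = 4, 4, 3 and 4) as bars; the dotted line separates the culture and region tables, which were normalized separately. Map1lc3a, Gabarap, Gabarapl1 and Calcoco1 lie higher in all 4 samples of 3D than in all 4 of 2D, and Gabarapl1 and Calcoco1 also lie higher in all 4 internal than in all 3 external samples.

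Cargo receptors bind ubiquitin or an organelle protein on one side and ATG8 on the other. All 5 measured receptors had a positive log2 fold change in both comparisons under every scaling tried, and 1 of them, *Calcoco1*, passed the test, in both comparisons. With the deposited scaling, 32.0% of all genes were above 0 in both comparisons and 3.62% were called higher in both. *Calcoco1* (ENSMUSG00000023055, chr15:102706777-102722178) encodes a receptor for autophagy of the endoplasmic reticulum and Golgi that was first described as a transcriptional coactivator. It was at 3.85, 4.39, 3.63 and 2.20 log2 CPM in 2D and at 5.59, 4.95, 6.32 and 6.39 in 3D. The groups did not overlap, 2D replicate 4 being the lowest, with 42 reads, and 3D replicate 2 the lowest of its group. The difference of 2.29 ± 0.45 in log2 (4.90-fold, adjusted p = 0.00777) was the largest of any member. Leaving out 1 sample at a time, the log2 fold change stayed between 1.85 and 2.58.

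In the external region *Calcoco1* was at 6.17, 6.25 and 6.32 log2 CPM, and in the internal region at 7.05, 7.14, 7.71 and 7.67. The external samples were close together and all internal samples were above them, with internal replicates 3 and 4 the highest. The log2 fold change was 1.15 ± 0.18 (2.22-fold, adjusted p = 5.1e-05), again the largest among the members, and it ranged from 1.04 to 1.26 when 1 sample was left out.

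*Sqstm1* encodes p62, the receptor for ubiquitinated protein aggregates. It was at 9.03, 9.62, 8.98 and 8.45 log2 CPM in 2D and at 9.50, 9.70, 9.69 and 9.78 in 3D. Only 2D replicate 2 reached into the range of 3D. The log2 difference of 0.65 ± 0.21 had an adjusted p of 0.0551, and leaving out 1 sample at a time it lay between 0.46 (without 2D replicate 4) and 0.85 (without 2D replicate 2), with adjusted p-values of 0.00558 to 0.134, the lowest without 2D replicate 2. The adjusted p was 0.0466 with median-of-ratios scaling and 0.0127 without both samples numbered 2. In the regions it was at 9.31, 9.53 and 9.56 outside and at 9.88, 9.62, 9.65 and 9.93 inside, without overlap, and the log2 difference was 0.30 ± 0.13 (adjusted p = 0.108; 0.0216 with total reads as the library size).

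*Nbr1*, a receptor that acts together with p62, was at 5.63, 4.49, 5.06 and 4.66 log2 CPM in 2D and at 5.55, 5.28, 5.73 and 5.81 in 3D. Only 2D replicate 1 overlapped the 3D samples. The log2 difference was 0.63 ± 0.24 (adjusted p = 0.0966). With each sample left out in turn it lay between 0.47 (without 2D replicate 2) and 0.85 (without 2D replicate 1), with adjusted p-values of 0.0174 to 0.218, the lowest without 2D replicate 1. The regions stood apart as well, at 5.04, 4.65 and 4.37 outside and at 5.41, 5.36, 5.44 and 5.13 inside. The log2 difference of 0.65 ± 0.24 had an adjusted p of 0.0570, and leaving out 1 sample it lay between 0.49 (without external replicate 3) and 0.83 (without external replicate 1), with adjusted p-values of 0.0286 to 0.216.

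*Optn*, which encodes the mitophagy receptor optineurin, had the fewest reads of the members, down to 24 in a sample. Its level was 1.46, 2.37, 1.61 and 2.33 log2 CPM in 2D and 2.75, 2.27, 2.93 and 2.57 in 3D, and the groups overlapped (log2 difference 0.69 ± 0.31, adjusted p = 0.147). Region samples were at 3.04, 3.51 and 3.77 outside and 3.45, 4.58, 3.71 and 4.18 inside, also overlapping (0.54 ± 0.37, adjusted p = 0.324). *Tax1bp1*, a ubiquitin-binding receptor, was at 6.89, 6.80, 6.72 and 6.65 log2 CPM in 2D and at 6.80, 6.91, 6.97 and 6.89 in 3D. Outside it was at 6.95, 6.97 and 6.90, and inside at 7.18, 7.45, 7.02 and 6.71. The groups overlapped in both comparisons, and its log2 differences of 0.13 ± 0.11 and 0.15 ± 0.17 did not pass the test (adjusted p = 0.448 and 0.577).

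The ULK complex is the kinase that receives nutrient signals and starts autophagosome formation. *Atg13* (ENSMUSG00000027244, chr2:91674618-91710576), the adaptor that holds the complex together, was the member of this group that passed the test in 3D. It was at 4.11, 4.26, 4.23 and 3.83 log2 CPM in 2D and at 4.62, 4.78, 4.68 and 4.94 in 3D, without overlap. The log2 fold change was 0.65 ± 0.17 (1.56-fold, adjusted p = 0.0247), and the call was lost without 2D replicate 4 (adjusted p = 0.0595) or without 3D replicate 2 (0.0539), 3 (0.0599) or 4 (0.0780). The regions also stood apart, at 5.18, 5.12 and 5.18 log2 CPM outside and 5.53, 5.60, 5.62 and 5.30 inside, but the log2 difference of 0.36 ± 0.21 did not pass the test (adjusted p = 0.246).

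*Ulk1*, the kinase itself, was at 4.49, 2.48, 4.18 and 4.28 log2 CPM in 2D and at 4.92, 4.08, 5.22 and 4.99 in 3D. The sample numbered 2 was the lowest in both groups, and 2D replicate 2 had 39 reads. The groups overlapped through 3D replicate 2, and the log2 difference was 0.95 ± 0.42 (adjusted p = 0.144). With single samples left out it lay between 0.49 (without 2D replicate 2) and 1.19 (without 3D replicate 2), with adjusted p-values of 0.0950 to 0.297, and without both samples numbered 2 it was 0.73 with an adjusted p of 0.0222. In the regions *Ulk1* was at 4.59, 4.72 and 3.66 outside and at 4.58, 5.32, 5.29 and 5.25 inside. Internal replicate 1 lay among the external samples, and the log2 difference of 0.79 ± 0.29 had an adjusted p of 0.0574. It was 0.46 with an adjusted p of 0.316 without external replicate 3, and the adjusted p was 0.0305 without internal replicate 1, 0.0490 without external replicate 2 and 0.04996 with a robust prior. *Rb1cc1*, which encodes the scaffold FIP200, was the member that stood apart in the lower direction in 3D. It was at 5.79, 5.78, 5.69 and 6.08 log2 CPM in 2D against 5.47, 5.47, 5.49 and 5.55 in 3D, a log2 difference of -0.34 ± 0.13 that did not pass the test (adjusted p = 0.0998), and 5.54% of the 50 nt stretches at its transcript ends are shared with *Gm13961*. The log2 differences of the second kinase gene *Ulk2* and of the stabilizing subunit *Atg101* were 0.27 and -0.02 in 3D and 0.33 and -0.24 in the internal region.

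The class III PI3-kinase complex makes the lipid PI3P at the growing membrane. *Atg14* (ENSMUSG00000037526, chr14:47540893-47570649), which directs the complex to autophagy and whose promoter carries the E-box printed above, was the member of this group that passed the test in 3D. It was at 3.14, 3.66, 3.06 and 3.22 log2 CPM in 2D and at 4.02, 4.19, 3.92 and 3.81 in 3D, without overlap. The log2 fold change was 0.72 ± 0.21 (1.64-fold, adjusted p = 0.0367). Leaving out any 1 sample other than 2D replicate 2 ended the call, with adjusted p-values of 0.0649 without 2D replicate 1, 0.0924 without 2D replicate 3 and 0.0767 without 2D replicate 4. Without 3D replicates 1 to 4 they were 0.0884, 0.0900, 0.0829 and 0.0638. In the regions it was at 3.89, 3.45 and 3.83 outside and at 3.99, 4.18, 5.27 and 4.27 inside. The groups did not overlap, internal replicate 3 being the highest, and the log2 difference of 0.70 ± 0.34 did not pass the test (adjusted p = 0.148).

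*Becn1*, which encodes the core subunit beclin 1, did not pass the test in either comparison, with log2 differences of -0.04 ± 0.15 in 3D and -0.40 ± 0.17 in the internal region (adjusted p = 0.873 and 0.112). Its external samples, at 6.65, 6.39 and 6.61 log2 CPM, were nonetheless all above the internal samples at 6.31, 6.12, 6.21 and 5.97. The catalytic subunit gene *Pik3c3* and its regulatory partner *Pik3r4* had log2 differences of 0.21 and 0.36 in 3D and 0.55 and 0.22 in the internal region. The alternative subunit gene *Uvrag* and the beclin 1 regulator *Ambra1* had -0.25 and -0.18 in 3D, and 0.19 and 0.36 in the internal region. None of these 4 passed the test in either comparison.

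**Figure D4:**
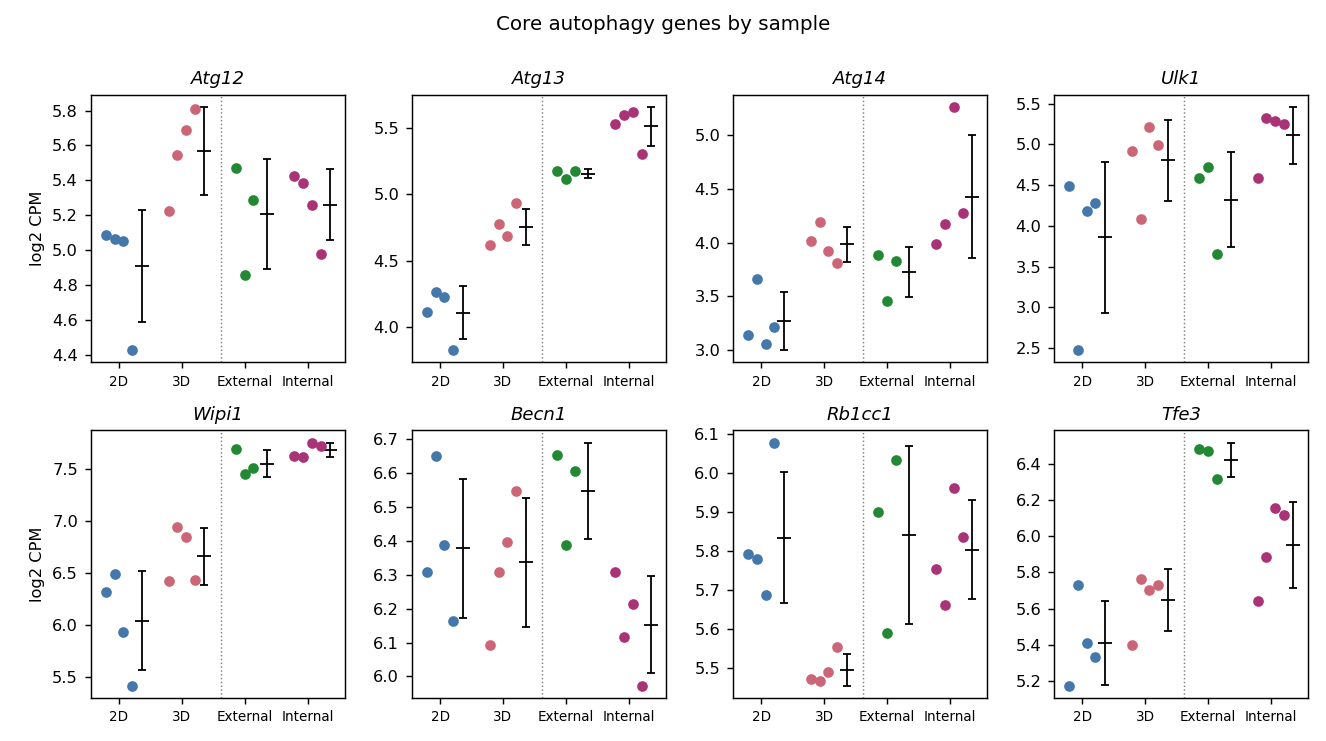
Level in log2 CPM of 8 further members in every sample, with the group mean and SD (n = 4, 4, 3 and 4) as bars; the dotted line separates the culture and region tables. Atg13 and Atg14 lie higher in all 3D than in all 2D samples and in all internal than in all external samples, Becn1 and Tfe3 lie lower in all internal samples, and 2D replicate 2 of Ulk1 lies at 2.48, below the other 2D samples.

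The conjugation enzymes process ATG8 and couple it to phosphatidylethanolamine, with ATG12 bound to ATG5 and ATG16L1 as the ligase. Of 8 members, 1 passed the test in 3D and 0 in the internal region, where 9.74% and 9.58% of all genes were called higher. *Atg12* was at 5.09, 5.07, 5.06 and 4.43 log2 CPM in 2D and at 5.22, 5.55, 5.69 and 5.81 in 3D. The groups did not overlap, and 2D replicate 4 was well below the other 2D samples. The log2 fold change was 0.66 ± 0.20 (1.58-fold, adjusted p = 0.0405). The call was lost without 2D replicate 3 (adjusted p = 0.0618) or 4 (0.0884), without 3D replicate 2 (0.0763), 3 (0.110) or 4 (0.118), without both samples numbered 2 (0.0547) and without a variance trend (0.0624). The region samples overlapped, at 5.47, 4.86 and 5.29 outside and 5.42, 5.39, 5.26 and 4.98 inside (log2 difference 0.06 ± 0.23, adjusted p = 0.896).

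The partners of ATG12 did not pass the test in 3D, with log2 differences of 0.07 for *Atg5* and -0.04 for *Atg16l1*. *Atg7*, the E1-like enzyme of both systems, lay higher in all 3D than in all 2D samples, but the log2 difference of 0.32 ± 0.15 had an adjusted p of 0.170. The E2-like enzyme genes *Atg3* and *Atg10* had -0.16 and 0.11, and the ATG8 protease genes *Atg4b* and *Atg4d* had 0.16 and -0.46. *Atg4d* had the most negative value of the 34 members in 3D (adjusted p = 0.150), with overlapping groups. *Atg3*, the member with 2 E-boxes, was at 5.65, 5.13, 5.76 and 5.76 log2 CPM in 2D and at 5.81, 5.05, 5.39 and 5.40 in 3D, so the groups overlapped and replicate 2 was lowest in both. In the internal region the log2 differences of the conjugation genes lay between -0.21 for *Atg4d* and 0.45 for *Atg10*, with adjusted p-values of 0.320 or above.

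The lipid transfer and PI3P-binding proteins expand the membrane. All 4 measured members had a positive log2 difference in 3D and 0 passed the test, where 47.8% of all genes were above 0 and 9.74% were called higher. *Wipi1*, a PI3P effector, was at 6.31, 6.49, 5.93 and 5.41 log2 CPM in 2D and at 6.42, 6.94, 6.85 and 6.43 in 3D. The groups overlapped in part, and the log2 difference was 0.62 ± 0.23 (adjusted p = 0.0871). With 1 sample left out it lay between 0.41 (without 2D replicate 4) and 0.77 (without 2D replicate 2), with adjusted p-values of 0.0297 to 0.201. *Vmp1*, a scramblase of the endoplasmic reticulum, lay higher in all 3D than in all 2D samples, by 0.32 ± 0.11 in log2 (adjusted p = 0.0736), and 9.76% of the 50 nt stretches at its transcript ends are shared with *Gm1969* and *Mir21a*. The lipid transfer gene *Atg2a* and the PI3P effector gene *Wipi2* had 0.40 and 0.02, the latter turning below 0 with total reads as the library size. In the internal region the 4 log2 differences lay between -0.16 for *Atg2a* and 0.13 for *Wipi1*, with adjusted p-values of 0.569 or above.

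The transcription factor genes did not pass the test in either comparison. *Tfe3* was at 6.49, 6.47 and 6.32 log2 CPM in the external region and at 5.64, 5.88, 6.16 and 6.12 in the internal region. The internal samples were all lower, and the log2 difference of -0.47 ± 0.19 had an adjusted p of 0.0724, and of 0.0384 with equal sample medians. In 3D its log2 difference was 0.24 ± 0.16 (adjusted p = 0.322). *Tfeb* had 35 to 88 reads per culture sample, and its log2 differences of 0.34 ± 0.32 in 3D and 0.60 ± 0.34 in the internal region had adjusted p-values of 0.497 and 0.227.

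The 2 comparisons used separate samples, so their values can be set side by side. *Calcoco1* and *Gabarapl1* passed the test in both, which is 28.6% of the members called higher in 3D and 100% of those called in the internal region. Over the 11041 genes in both tables, 400 were called higher in both, which is 35.8% of the genes called in 3D and 38.0% of those called in the internal region. *Atg13* and *Atg14* passed it in 3D only, but their groups stood apart in the higher direction in both comparisons, as did those of *Calcoco1* and *Gabarapl1*. These 4 members are 11.8% of the 34, where the groups of 4.40% of all genes stood apart and higher in both. *Map1lc3a*, *Gabarap* and *Atg12* passed the test in 3D while their log2 differences between regions were -0.10, -0.01 and 0.06, and whether the effect differed between the comparisons was not tested. In all, 19 members had a log2 difference above 0 in both comparisons, 7 above 0 in 3D only, 4 above 0 in the internal region only, and 4, namely *Atg4d*, *Atg101*, *Becn1* and *Rb1cc1*, below 0 in both. In the same order these are 55.9%, 20.6%, 11.8% and 11.8% of the members, against 32.0%, 16.3%, 20.6% and 31.0% of all genes.

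**Figure D5:**
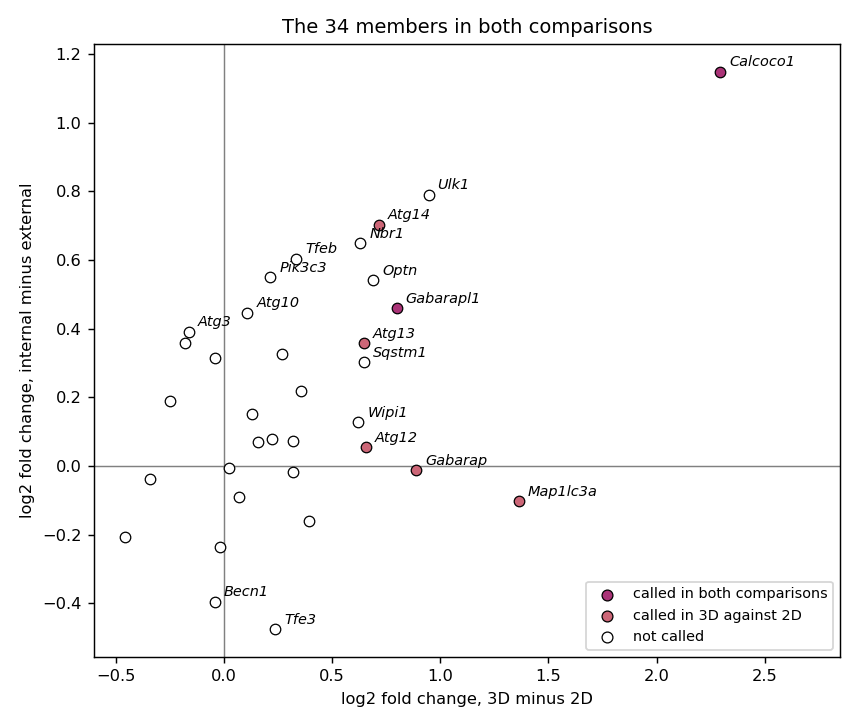
Log2 fold change of the 34 members, 3D minus 2D on the x axis and internal minus external on the y axis, coloured by the test at an adjusted p under 0.05. Calcoco1 lies alone at the upper right (2.29 and 1.15), and Map1lc3a (1.36 on the x axis) and Gabarap (0.89) lie near 0 on the y axis.

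Of 50 other genes of the pathway, 48 had a row in both tables, 25 of late steps and further core functions and 23 of nutrient sensing and regulation. In 3D, 4 of the 48 were higher (8.33%, against 9.74% of all genes) and 1 was lower (2.08%, against 9.25%). *Mitf*, a transcription factor of the same family as *Tfeb* and *Tfe3*, rose by 2.13 ± 0.22 in log2 (adjusted p = 0.000513). The PI3P-binding marker gene of early autophagosome sites *Zfyve1* rose by 1.06 ± 0.29, the tethering factor gene *Tecpr1* by 0.93 ± 0.20 and the stress-induced sestrin gene *Sesn1* by 0.72 ± 0.18, with adjusted p-values of 0.0305, 0.0123 and 0.0201. The call of *Zfyve1* was lost in 4 of the 8 fits that left out 1 sample, those without 2D replicate 4 (adjusted p = 0.0760) and without 3D replicate 1 (0.0911), 2 (0.0801) or 4 (0.0550), and without both samples numbered 2 (0.0842). That of *Sesn1* was lost without 2D replicate 3 (0.0546) and without 3D replicate 1 (0.0585) or 3 (0.0651). *Rheb*, the GTPase that activates mTORC1, fell by 0.65 ± 0.16 (adjusted p = 0.0208), a call lost without 3D replicate 3 (0.0661) and without both samples numbered 2 (0.0576).

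In the internal region 5 of these 48 genes were higher (10.4%, against 9.58% of all genes) and 2 were lower (4.17%, against 12.1%). *Mitf* was higher by 1.72 ± 0.21 in log2 and *Flcn*, which encodes the folliculin subunit of a Rag GTPase regulator, by 1.45 ± 0.24 (adjusted p = 2.3e-06 and 0.00011). *Ddit4*, a stress-induced inhibitor of mTORC1, was higher by 1.41 ± 0.23, the Rag GTPase gene *Rragc* by 1.09 ± 0.31 and *Zfyve1* by 0.82 ± 0.23, with adjusted p-values of 7.8e-05, 0.0125 and 0.0135. The scramblase gene *Tmem41b* fell by 0.89 ± 0.24 and the sestrin gene *Sesn2* by 0.72 ± 0.26 (adjusted p = 0.00878 and 0.0484). The call of *Zfyve1* was lost without external replicate 2 (adjusted p = 0.0606) and without both samples numbered 2 (0.126), that of *Rragc* in 4 of 17 alternative fits, among them without external replicate 2 (0.0806) or 3 (0.102), and that of *Tmem41b* without external replicate 3 (0.0525). The call of *Sesn2* was lost in 11 of these 17 fits, which leave the threshold as it is, with an adjusted p of up to 0.259 (without external replicate 3). *Mitf* kept its call under every alternative tried in both comparisons.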

How the data were processed

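Libraries of 15 samples were made by the authors with a QuantSeq 3′ kit, in which reads come from transcript ends and do not scale with transcript length. Only sense reads were kept. They were aligned with STAR 2.7.8a to GRCm38.p6 and counted with featureCounts 1.6.0. The annotation release is not given in the sources used here. What the authors deposited is log2 CPM per gene and sample. Library sizes were scaled separately in the culture table (11677 genes, 8 samples) and the region table (11299 genes, 7 samples), with a prior count of 2.0 reads on average. Authors' fold changes and p-values, also in the tables, were not used.

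Whole reads were recovered from the spacing of the log2 values for 100.0% of values (tolerance 0.05 reads). Every member had more than 3 reads in every sample, from 24 to 11833. Reads that are PCR copies cannot be told apart, so depth limits cover counting error only. Replicates of a group differed beyond sampling noise, with a chi-square per degree of freedom of 13.7 or more.

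Samples were grouped by their titles. Tests were made on the log2 values with limma 3.58.1 in R 4.3.3, not with a count model. A linear model per gene was moderated by empirical Bayes with a trend in the variance, and two-sided p-values were adjusted by Benjamini-Hochberg over the whole table. A gene counts as called where its adjusted p is under 0.05, and the stricter alternatives add an absolute log2 fold change over 1. The fits were tested on simulated data. Members and gene lists were chosen with earlier results of these data known, so the counts over them are descriptions and no gene set was tested. All members present in both tables are named, with the value in every sample for those called and for the ATG8 and cargo receptor genes. *Atg3*, *Ulk1*, *Rb1cc1*, *Becn1*, *Wipi1* and *Tfe3* were chosen for such values after they were seen. Other pathway genes are named where called. The alternatives left out the variance trend or used a robust prior, the replicate number as a block, a mean of at least 2 log2 CPM, equal sample medians, total reads as library size, median-of-ratios scaling, a prior of 0.5, limma-voom on the recovered reads, stricter calls, and leaving out samples.

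GENCODE vM21 held 11676 of the 11677 and 11298 of the 11299 Ensembl IDs and gave gene positions on GRCm38. The last 300 nt of transcripts were searched for 50 nt stretches shared with other genes, found for 3 of 34 members (*Atg4b*, *Rb1cc1*, *Vmp1*). Promoters are those of RefSeq on GRCm38.p6. Python 3.11.15, numpy 2.4.6, pandas 2.3.3 and matplotlib 3.10.9 were used.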

Additional observations from a re-analysis of the deposited data

Results flagged for a closer look

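In groups of 4 samples, 8 of 102 sets of 1 member in 1 group held a sample whose gap to its nearest neighbour took up more of the group's range than Dixon's 95% critical value allows, where chance gives about 1 in 20. In 2D, *Ulk1* was 2.48 log2 CPM (39 reads) in replicate 2, against 4.18 to 4.49 in the others, and *Atg3* was 5.13 in the same sample, against 5.65 to 5.76. *Atg12* was 4.43 in 2D replicate 4, against 5.06 to 5.09, and *Tfeb* was 2.43 in 2D replicate 1, against 2.86 to 2.95. In 3D, *Tfeb* was 2.19 (35 reads) in replicate 2, against 3.37 to 3.54, and *Tfe3* was 5.40 in replicate 1, against 5.70 to 5.76. In internal replicate 1, *Gabarap* was 9.13, against 8.39 to 8.51, and *Ulk1* was 4.58, against 5.25 to 5.32. The *Atg12* value belongs to a called difference, which has an adjusted p of 0.0884 by limma without 2D replicate 4. The causes of these values were not tested.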

How the results depend on the processing

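In 3D, the number of members called higher was 2 when a log2 fold change over 1 was required at an adjusted p under 0.05 or 0.01 (5.88%, against 5.52% and 2.92% of all genes). It was 6 to 10 under the other alternatives (17.6 to 29.4%, against 8.64 to 11.5% leaving aside the level filter). The filter of a mean of at least 2 log2 CPM gave 7 members and 985 of all genes. Its share of the genes it kept was not computed. Neither table's replicate numbers are said to mark pairs. In the cultures, same-numbered samples correlated at 0.00521 to 0.503, the highest between the samples numbered 2. Samples with different numbers there correlated at -0.33 to 0.188, and 4 of 8 samples correlated best with their own number. In the regions the ranges were -0.065 to -0.044 and -0.0729 to 0.0639, with 0 of 6. These values do not settle whether the numbers mark pairs. With the replicate number as a block, 10 members were called in 3D, *Ulk1*, *Wipi1* and *Sqstm1* in addition, and 1 in the internal region, *Calcoco1*, *Gabarapl1* being lost with an adjusted p of 0.0827 (limma). Over all genes the block moved the calls from 1137 to 1343 higher in 3D and from 1083 to 719 higher in the internal region. The block gave 1 other pathway gene lower in the internal region, as did no variance trend, total reads as library size, a prior of 0.5, voom and leaving out the samples numbered 2.

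The members called higher in the internal region were 1 without a variance trend, with equal sample medians (with 1 lower), without the samples numbered 2 and under both stricter rules, and 5 with total reads as library size, which adds *Ulk1*, *Sqstm1* and *Nbr1*. A robust prior gave 3, adding *Ulk1*. All genes called higher were 9.58% in the fit reported, and in the order of these alternatives 5.52%, 8.11%, 5.06%, 4.77% and 3.27%, 12.8% and 9.74%. The median log2 fold change of the 34 members there was 0.10 with equal sample medians and 0.28 with total reads. Other pathway genes called higher in 3D were 2 with a log2 fold change over 1 and 1 at the stricter p, and those lower were 0 under both and without the samples numbered 2. In the internal region those higher were 3 at the stricter p and without the samples numbered 2, and those lower were 0 under both stricter rules. Leaving out 1 sample at a time gave 4 to 9 members higher in 3D and 1 to 3 in the internal region, and 0 lower in either. Over all genes it gave 5.26 to 12.4% higher and 4.56 to 11.9% lower in 3D, and 6.93 to 9.51% higher and 8.88 to 11.5% lower in the internal region. For other pathway genes it gave 2 to 5 higher and 0 to 2 lower in 3D, and 3 to 5 higher and 0 to 2 lower in the internal region.

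The log2 fold changes whose sign turned all belong to members that did not pass the test in that comparison. In 3D they were *Wipi2* (-0.0182) with total reads, *Atg101* (0.0135) with median-of-ratios scaling and, without the samples numbered 2, *Atg5* (-0.0449), *Atg101* (0.0179) and *Becn1* (0.059). In the internal region they were *Gabarap* (0.0614), *Atg4b* (-0.0495) and *Wipi2* (0.0216) with the block, *Atg12* (-0.0134) with equal sample medians, and *Map1lc3a* (0.0078), *Gabarap* (0.098), *Atg5* (0.019), *Atg7* (0.0934), *Rb1cc1* (0.0712) and *Wipi2* (0.10) with total reads. With voom *Atg7* (0.0237) and *Wipi2* (0.0025) turned, and without the samples numbered 2 *Gabarapl2* (-0.0601), *Atg12* (-0.16), *Atg2a* (0.0169) and *Wipi2* (0.0181). Leaving out 1 sample at a time turned, in 3D, *Atg5* (-0.0452 to 0.14), *Atg101* (-0.12 to 0.0625), *Becn1* (-0.11 to 0.0497), *Atg10* (-0.0504 to 0.29), *Atg16l1* (-0.19 to 0.094) and *Wipi2* (-0.11 to 0.17). For the regions it turned *Gabarapl2* (-0.017 to 0.21), *Gabarap* (-0.19 to 0.0614), *Rb1cc1* (-0.16 to 0.0581), *Atg7* (-0.0803 to 0.0687), *Wipi2* (-0.0766 to 0.0588), *Vmp1* (-0.13 to 0.25), *Atg4b* (-0.0495 to 0.15), *Atg5* (-0.39 to 0.27) and *Atg12* (-0.12 to 0.19). The causes were not tested. The fewest reads in a sample were 24 for *Optn*, 26 for *Pik3c3* and 35 for *Tfeb*.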
